A study of Mus musculus with 8 samples.

Results

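Rtcb encodes the ligase that rejoins the Xbp1 mRNA during the unfolded protein response. It is described here with 9 other genes of that response, which makes 10 of the 20308 genes in the count files. Rtcb was chosen by its rise in CSF1 OE mice in this same contrast, so its values are a description with no test. The other 9 were chosen by role: Ddx1, Xbp1, Ern1, Atf6, Atf4, Ddit3, Hspa5, Hsp90b1 and Calr. RNA was sequenced from CD11b+ cells, which are microglia and other myeloid cells, taken with magnetic beads from the right brain hemisphere of 4 control and 4 CSF1 OE mice. Mice of both groups were C57Bl/6 X CD1 F1 animals aged 14 or 15 days, with 1 library per mouse and no pooling. In CSF1 OE mice a TRE/tTA transgene makes some of the cells that express GFAP release CSF1, the growth factor of microglia. Which parts of the transgene system the control mice carry is not given in the labels.

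Library totals ran from 12053259 to 15475465 counts, and all 10 genes passed the filter on low counts, with at least 452 counts in every mouse. The 8 markers of microglia summed to between 19532 and 33779 CPM (counts scaled to a common library size) in control mice and to between 25837 and 36659 CPM in CSF1 OE mice. RNA of other cells was present too: the 7 endothelial markers summed to between 621 and 1061 CPM in control mice and to between 300 and 731 CPM in CSF1 OE mice, and all 7 had a fitted value below 0. The 6 markers of border macrophages, which the beads also take, summed to between 1535 and 2439 CPM in control mice against 1232 to 1843 CPM in CSF1 OE mice, again with all 6 below 0. No marker of either list was called. At an unadjusted p under 0.05 in edgeR, 5 of the 6 border macrophage markers and 2 of the 7 endothelial markers were lower, beside 6.44% of all genes. In both lists 0 were higher, beside 10.1% of all genes. The 5 choroid plexus markers, led by the abundant Ttr, summed to between 5178 and 6776 CPM in control mice and to 3835, 3719, 7219 and 2071 CPM in CSF1 OE mice 1931, 1932, 1936 and 2019, with all 5 below 0. Enpp2 of this list and Ly6c1 of the endothelial list were lower in every CSF1 OE mouse than in any control mouse. Aif1 of the microglia list was higher in every one. Of all genes tested, 10.3% had groups that did not overlap, in either direction. The 6 oligodendrocyte markers summed to between 2643 and 5645 CPM in control mice against 1408 to 4530 CPM in CSF1 OE mice, with 5 of 6 below 0, and the 4 T and NK cell markers did not exceed 0.797 CPM. The part of these other cells in the results was not tested. In such bulk samples fewer cells of a type and less RNA per cell cannot be told apart.

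When unfolded proteins build up in the endoplasmic reticulum (ER), sensors in its membrane start the unfolded protein response. The sensor IRE1, encoded by Ern1, cuts the Xbp1 mRNA at both ends of a short unconventional intron, and the tRNA ligase RTCB, which works in a complex with the helicase DDX1, joins the ends. The spliced mRNA encodes an active transcription factor. The sensor ATF6 is released by proteolysis and turns on chaperone genes, and the sensor PERK phosphorylates eIF2 alpha, which lowers translation in general and favours that of ATF4 and, downstream, of CHOP (Ddit3). In macrophages and other secretory immune cells the XBP1 arm is known to keep up the capacity for secretion.

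The Xbp1 intron is shown because it is the substrate that links Ern1, Xbp1 and Rtcb. It is 26 bases long and lies in exon 4, in coding sequence, at chr11:5524279-5524304 (GRCm38, plus strand), as found in the GENCODE transcript Xbp1-201 by its pair of CNGCAGC loops, the only pair in that transcript at this distance. In the unspliced form the intron is in capitals. In the spliced form it is gone, and since 26 is not a multiple of 3 the reading frame changes.
Xbp1 unspliced: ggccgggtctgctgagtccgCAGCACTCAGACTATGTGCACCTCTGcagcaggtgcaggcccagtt
Xbp1 spliced: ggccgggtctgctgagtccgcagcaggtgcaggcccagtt

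The deposited values are counts per gene, so the spliced and unspliced forms of Xbp1 were counted together, and the ligation itself was not measured.

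A second kind of sequence joins the chaperone genes. ATF6 and spliced XBP1 act through the ER stress response element (ERSE), whose letters are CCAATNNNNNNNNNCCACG. It was searched on both strands of the RefSeq promoter windows (GRCm38.p6, 250 bases before to 50 after each start), and 0.119% of the 32851 windows held it. Windows were found for 8 of the 10 genes, all but Rtcb and Atf6. Hspa5, Calr and Hsp90b1 held it, and their matches are given here on the gene's strand with the ERSE in capitals, which reads CGTGG first where it lies on the other strand.
Hspa5, chr2:34772025-34772043: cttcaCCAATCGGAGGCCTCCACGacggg
Calr, chr8:84847075-84847093: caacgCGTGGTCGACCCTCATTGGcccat
Hsp90b1, chr10:86705638-86705656: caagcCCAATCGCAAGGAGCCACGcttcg
Hsp90b1, chr10:86705533-86705551: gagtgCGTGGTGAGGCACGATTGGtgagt

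These matches begin 65 bases before the start of Hspa5, 162 before that of Calr, and 212 and 107 before that of Hsp90b1, counted from the RefSeq starts. GENCODE, the source of the gene positions given with the values, starts these genes 120, 3 and 65 bases further upstream, so that the match of Hspa5 lies inside its GENCODE gene. The letters of the UPRE (TGACGTGG, in 0.676% of windows), of the amino acid response element CARE (TGATGCAA, 0.895%) and of ERSE-II (ATTGGNCCACG, 0.0365%) were in none of the members' windows. ERSE-II shares the letters CCACG with ERSE. A match in letters is a description and not a measured binding site.

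Rtcb (chr10:85938637-85957823, minus strand) was higher in every CSF1 OE mouse than in any control mouse. Its level was 99.7, 92.7, 82.6 and 89.4 CPM in control mice 1827, 1872, 1874 and 1934. It was 165, 151, 150 and 148 CPM in CSF1 OE mice 1931, 1932, 1936 and 2019. No control mouse reached the CSF1 OE values, and the mice of a group lay close together, with means of 91.1 ± 7.10 CPM for control mice and 153 ± 7.63 CPM for CSF1 OE mice (SD, n = 4 each). The fitted log2 fold change was 0.75 with a standard error of 0.080, which is 1.68-fold. Among mice numbered 1931 to 1936, control mouse 1934 had 89.4 CPM and the 3 CSF1 OE mice had between 150 and 165 CPM. Among the other mice, the 3 control mice had between 82.6 and 99.7 CPM and CSF1 OE mouse 2019 had 148 CPM. Only 28 bases of Rtcb's exons, 1.07%, are shared with another gene, Ascl4 on the opposite strand, which reads without strand cannot tell apart.

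Ddx1 (chr12:13216973-13249213, minus strand), the helicase partner of the ligase, had no such difference. Its level was 88.9, 73.6, 73.5 and 85.5 CPM in control mice 1827, 1872, 1874 and 1934, and 86.6, 95.01, 99.99 and 75.2 CPM in CSF1 OE mice 1931, 1932, 1936 and 2019. Control and CSF1 OE values overlapped, mouse 2019 being among the lowest of all 8. The log2 fold change was 0.15 (95% interval -0.09 to 0.40, edgeR adjusted p = 0.518). The ratio of the count of Rtcb to that of Ddx1, which does not depend on how libraries are scaled, was 1.12, 1.26, 1.12 and 1.05 in the control mice. In the CSF1 OE mice it was 1.90, 1.59, 1.496 and 1.97, above every control mouse. Since Rtcb was chosen by its rise and Ddx1 overlapped between groups, this separation follows from that choice. The ratio is a description and not further evidence for the rise.

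**Figure D1:**
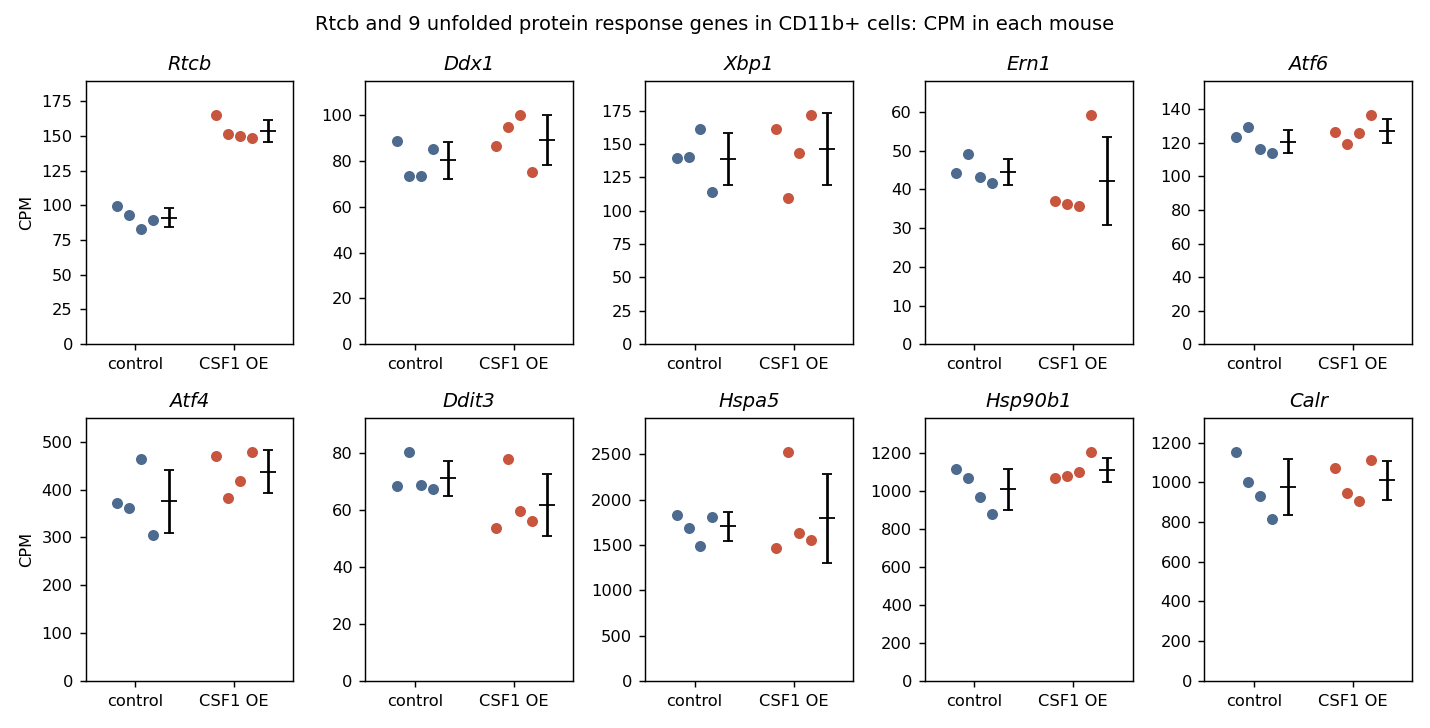
CPM (vertical axis from 0, a scale for each gene) of the 10 genes in 4 control and 4 CSF1 OE mice. Points are mice in order of animal number, and the bar beside them is the mean ± SD. Rtcb was chosen by its rise, and its control mice lie from 82.6 to 99.7 CPM and its CSF1 OE mice from 148 to 165 CPM. In the other 9 the groups overlap, where 10.3% of all genes tested had groups that did not overlap.

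The IRE1 arm was next. Ern1 (chr11:106394650-106487852, minus strand), which encodes the sensor that cuts Xbp1, had 44.1, 49.2, 43.2 and 41.6 CPM in control mice 1827, 1872, 1874 and 1934. It had 37.1, 36.3, 35.7 and 59.1 CPM in CSF1 OE mice 1931, 1932, 1936 and 2019. Thus 3 of 4 CSF1 OE mice lay below every control mouse and mouse 2019 lay above all of them. Its log2 fold change was -0.08 (95% interval -0.46 to 0.29, adjusted p = 0.821) with mouse 2019 and -0.29 (adjusted p = 0.174) without it.

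Xbp1 (chr11:5520659-5525893, plus strand), the substrate, had 140, 140, 161 and 114 CPM in the control mice in the same order. It had 161, 110, 143 and 171 CPM in the CSF1 OE mice. The highest and the lowest of the 8 values were both from CSF1 OE mice, 2019 and 1932. On the log2 scale the fold change was 0.08 (95% interval -0.27 to 0.42, adjusted p = 0.813).

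Atf6 (chr1:170704674-170867771, minus strand), which encodes the sensor that is cut by site proteases, was the steadiest of the 10, with a ratio of 1.19 between the highest and the lowest mouse. It had 123, 130, 116 and 114 CPM in the control mice and 127, 119, 126 and 136 CPM in the CSF1 OE mice. Its groups overlapped, and the log2 fold change was 0.07 (95% interval -0.10 to 0.24, adjusted p = 0.657).

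Of the chaperones with an ERSE, Hspa5 (chr2:34771970-34777547, plus strand), which encodes the ER chaperone BiP, was the most abundant member. It had 1835, 1685, 1489 and 1810 CPM in the control mice. It had 1468, 2524, 1626 and 1559 CPM in the CSF1 OE mice, so that mouse 1932 stood alone and the other 3 lay within or below the range of the control mice. With all 8 mice the log2 fold change was 0.07 (95% interval -0.35 to 0.49, adjusted p = 0.860), and without mouse 1932 it was -0.13 (adjusted p = 0.587).

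Hsp90b1 (chr10:86690209-86705509, minus strand), which encodes the chaperone GRP94, had 1119, 1072, 970 and 879 CPM in the control mice. It had 1069, 1081, 1100 and 1207 CPM in the CSF1 OE mice, and only mouse 2019 exceeded every control mouse. Fitted over the 8 mice, its log2 fold change was 0.14 (95% interval -0.11 to 0.39, adjusted p = 0.554). Of its exon bases 10.3% are shared with the opposite-strand pseudogene 1810014B01Rik.

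Calr (chr8:84841850-84846934, minus strand), which encodes the calcium-binding chaperone calreticulin, had 1153, 1002, 932 and 815 CPM in the control mice and 1071, 947, 909 and 1112 CPM in the CSF1 OE mice. All 4 CSF1 OE mice lay within the range of the control mice. The log2 fold change was 0.05 (95% interval -0.25 to 0.35, adjusted p = 0.867).

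In the PERK arm, Atf4 (chr15:80255184-80257541, plus strand) encodes the transcription factor of the integrated stress response. It had 372, 360, 463 and 306 CPM in the control mice. It had 471, 383, 418 and 478 CPM in the CSF1 OE mice, of which 2 exceeded every control mouse. Its log2 fold change of 0.22 (95% interval -0.09 to 0.53, adjusted p = 0.449) was the highest among the 9. ATF4 is controlled largely at translation, which counts of mRNA do not show.

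Ddit3 (chr10:127290774-127296288, plus strand), which encodes the pro-apoptotic factor CHOP, had the lowest fold change of the 9. It had 68.3, 80.3, 68.7 and 67.3 CPM in the control mice and 53.8, 77.8, 59.6 and 56.2 CPM in the CSF1 OE mice. Thus 3 of 4 CSF1 OE mice lay below every control mouse, and mouse 1932 lay among them. For Ddit3 the log2 fold change was -0.20 (95% interval -0.48 to 0.08, adjusted p = 0.451). It was -0.33 (edgeR adjusted p = 0.156) without CSF1 OE mouse 1932 and -0.14 (edgeR adjusted p = 0.688) without control mouse 1872. Of its exon bases 3.97% are shared with Mars on the opposite strand.

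None of the 9 genes other than Rtcb was called. A gene was called at an adjusted p under 0.05 (Benjamini-Hochberg over all genes tested) with a fold change under 0.7 or over its inverse, 1/0.7, and 59 of 13407 genes, 0.440%, were called by edgeR's quasi-likelihood test. The count among the 9 was 0 by edgeR, by DESeq2 and by limma, of which DESeq2 called 3.09% and limma 0.776% of all genes. It was also 0 at an unadjusted p under 0.05 in edgeR, which 16.5% of all genes passed in either direction, so 0 of 9 is not far from what these shares would give. Their groups overlapped in all 9, where 10.3% of all genes tested had groups that did not overlap. The median log2 fold change of the 9 was 0.07, beside -0.03 for all genes tested, and 7 of the 9 were above 0, beside 44.8% of all genes. The intervals limit how large a change could have been missed: in 8 of the 9 the 95% interval lay inside the fold thresholds, and that of Atf4 reached 1.45-fold. A p that misses the threshold does not show that the groups were equal.

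**Figure D2:**
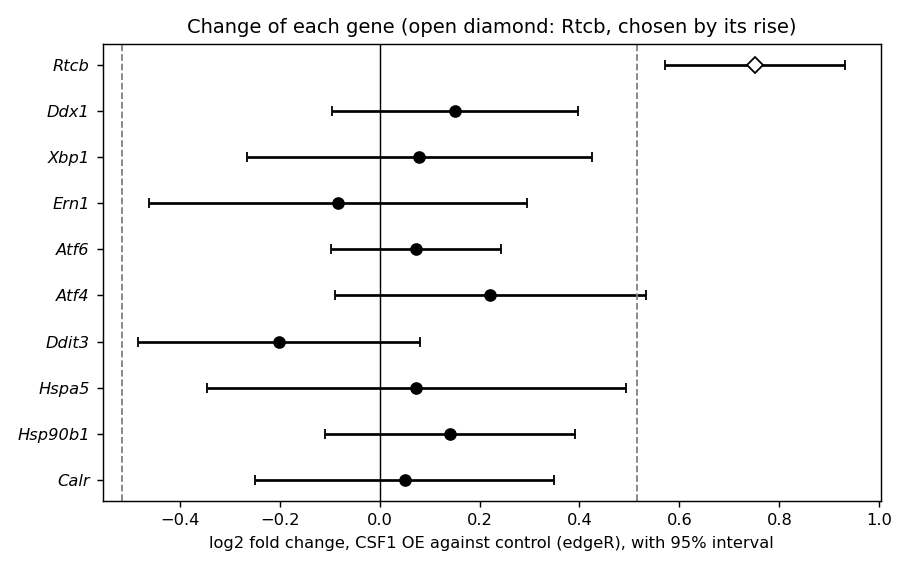
The log2 fold change of each gene in CSF1 OE against control (horizontal axis), with its 95% interval from the edgeR fit. Dashed lines mark the fold thresholds of 0.7 and 1/0.7. Rtcb, the open diamond, lies at 0.75. It was chosen by its rise, so its interval is a description and not a test. The other 9 lie between -0.20 and 0.22 with intervals that all include 0.

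Levels of different genes were compared as CPM per kilobase of annotated exons. In control mice Hspa5 (403 ± 37.3) and Calr (339 ± 49.0) led, and their values overlapped over the 4 mice. Hsp90b1 (251 ± 26.5) and Atf4 (159 ± 27.6) followed, each below its neighbour in every mouse. Xbp1 (42.7 ± 5.96) and Ddit3 (41.5 ± 3.58) overlapped. Rtcb (34.8 ± 2.71) came 7th, then Ddx1 (15.8 ± 1.57), Atf6 (13.1 ± 0.761) and the sensor Ern1 (5.45 ± 0.400), none overlapping its neighbour (SD, n = 4). The chaperones were thus present at higher mRNA levels per length than the sensors Atf6 and Ern1. Rtcb, at 31.6 to 38.1 in the control mice, overlapped Xbp1, at 35.1 to 49.6, though not its neighbour Ddit3. In CSF1 OE mice Rtcb, at 58.7 ± 2.92 CPM per kilobase, came 5th, above Xbp1 (45.1 ± 8.32) and Ddit3 (36.1 ± 6.36) in every mouse, and the order of the others was that of the control mice. With the length of the longest transcript in place of all exons, 6 of the 10 genes kept their place in control mice. Xbp1 and Ddit3 changed places, as did Ddx1 and Atf6. The values of Rtcb in CSF1 OE mice then overlapped those of both Xbp1 and Ddit3.

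**Figure D3:**
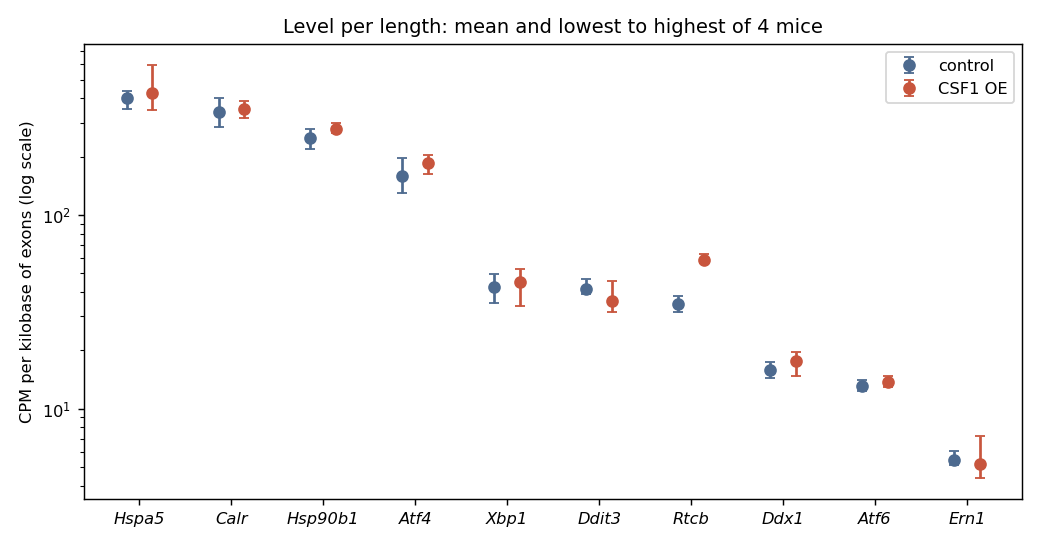
Level of each gene in CPM per kilobase of exons (vertical axis, log scale), in control and CSF1 OE mice. Points are means of 4 mice and bars run from the lowest to the highest mouse. Genes are in the order of the control mice, from Hspa5 at 403 to Ern1 at 5.45, and Rtcb moves from 34.8 to 58.7.

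The other genes of the pathway were counted in 8 lists that hold 120 genes, of which 116 were tested. Of these, 1 was called higher and 0 were called lower, beside 0.388% and 0.0522% of all genes tested. At an unadjusted p under 0.05, 19 of 116 (16.4%) were higher and 0 were lower in CSF1 OE, beside 10.1% and 6.44% of all genes. In 11 of 116 (9.48%) every CSF1 OE mouse lay above every control mouse, beside 6.84% of all genes. The median log2 fold change of the 116 was 0.09, beside -0.03. DESeq2 and limma each called 2 of the 116, Eif2ak2 and Ssr4, where they called 3.09% and 0.776% of all genes.

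The called gene was Eif2ak2, which encodes PKR, a kinase of eIF2 alpha that is activated by double-stranded RNA and induced by interferon rather than by ER stress. It had 40.9, 32.8, 35.4 and 34.3 CPM in the control mice and 59.4, 54.3, 83.2 and 73.0 CPM in the CSF1 OE mice. The groups did not overlap, and the log2 fold change was 0.91 with a standard error of 0.14 (edgeR adjusted p = 0.0431). The other eIF2 alpha kinases in the list had no call, with log2 fold changes of -0.07 for Eif2ak3 (PERK), -0.01 for Eif2ak4 (GCN2) and 0.04 for Eif2ak1 (HRI). Among the 10 tested genes of this list of sensors, kinases and site proteases the largest fall was that of Creb3l2 (-0.15, adjusted p = 0.584), and the median was -0.0047. Eif2ak2 lost its call without any one of CSF1 OE mice 1931, 1936 and 2019 or control mice 1872, 1874 and 1934. The edgeR adjusted p then reached up to 0.182. Its log2 fold change stayed between 0.80 and 1.01 when 1 mouse was left out.

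The partners of RTCB in the tRNA ligase complex gave no call, where 0.440% of all genes were called. All 5 had a fitted value above 0, beside 44.8% of all genes, with a median log2 fold change of 0.15. The largest value was that of Rtraf (listed as 2700060E02Rik; chr14:19811351-19823824, minus strand), a subunit of that complex. It had 69.5, 58.4, 65.0 and 67.8 CPM in the control mice and 80.0, 85.6, 96.9 and 75.4 CPM in the CSF1 OE mice. The groups did not overlap, but the log2 fold change of 0.37 (SE 0.10) was not called by edgeR (adjusted p = 0.109). The adjusted p was 0.0183 by DESeq2 and 0.109 by limma, and neither called Rtraf. Its log2 fold change by DESeq2, 0.37, lay inside the fold thresholds. Of the exon bases of Rtraf 22.7% are shared with Nid2 on the opposite strand. The lowest partner was Fam98c (0.06, adjusted p = 0.843). Rtraf alone of the 5 (20%) had an unadjusted p under 0.05, beside 10.1% of all genes that were higher at this p. It was also the only one of the 5 (20%) whose groups did not overlap, beside 6.84% of all genes higher in this way. The 7 other genes of tRNA splicing and RNA end processing ran from -0.18 (Tsen54, a subunit of the tRNA splicing endonuclease) to 0.13 (Clp1, an RNA kinase), with a median of 0.01 and 0 at an unadjusted p under 0.05.

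The ER translocation list, which holds the signal recognition particle, the translocon and the signal peptidase, had no call by edgeR among 24 genes, while DESeq2 and limma each called 1, Ssr4. At an unadjusted p under 0.05, 7 of 24 (29.2%) were higher, beside 10.1% of all genes, and in 6 of 24 (25.0%) every CSF1 OE mouse lay above every control mouse, beside 6.84%. These 6 were Ssr3, Ssr4, Sec61b, Sec61g, Sec11a and Srp14. Ssr4, a subunit of the translocon-associated complex, had the largest value. It had 58.2, 47.6, 45.1 and 42.8 CPM in the control mice and 67.6, 71.3, 68.6 and 71.6 CPM in the CSF1 OE mice. Its log2 fold change was 0.53 (SE 0.10), with an adjusted p of 0.0558 by edgeR, 0.000109 by DESeq2 and 0.0480 by limma. The translocon subunits Sec61b and Sec61g had 0.43 (adjusted p = 0.139) and 0.42 (adjusted p = 0.175), and the largest fall was that of Srp54a (-0.40, adjusted p = 0.434), whose counts may be split with its copy Srp54b. The median of the list was 0.15.

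Among 28 tested targets of ATF4 and CHOP there was no call by edgeR, DESeq2 or limma, and 6 (21.4%) were higher at an unadjusted p under 0.05, beside 10.1% of all genes: Nupr1, Psat1, Shmt2, Mthfd2, Gars and Wars. These include enzymes of serine and one-carbon metabolism and aminoacyl-tRNA synthetases. The synthetase genes Aars, Mars, Nars, Sars and Tars did not pass this p, nor did Phgdh and Psph of serine synthesis. In 2 of 28 (7.14%) every CSF1 OE mouse lay above every control mouse, beside 6.84% of all genes. The largest rise was that of the stress-induced gene Nupr1, with 14.2, 11.1, 7.26 and 5.50 CPM in the control mice and 17.8, 12.6, 14.6 and 19.9 CPM in the CSF1 OE mice. The groups overlapped through CSF1 OE mouse 1932, and the log2 fold change was 0.77 (adjusted p = 0.242). The largest fall was that of Ddit4 (-0.58, adjusted p = 0.407), an inhibitor of mTORC1 signalling. With a term for animal number, Nupr1 and Mthfd2 were called higher and the amino acid transporter gene Slc7a1 lower, and without CSF1 OE mouse 2019 Phgdh, an enzyme of serine synthesis, was called higher. The median of the list was 0.14, and Trib3 and Chac1, classical CHOP-linked targets, had too few counts to be tested.

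The ER chaperones and folding enzymes had no call among 22 genes and a median of 0.06. At an unadjusted p under 0.05, 2 of 22 (9.09%) were higher, near the 10.1% of all genes. They ran from -0.11 for Creld2 (adjusted p = 0.683) to 0.26 for Sdf2l1 (adjusted p = 0.544), and only Ppib, a proline isomerase of the ER, had groups that did not overlap (0.19, adjusted p = 0.253), 4.55% of the list beside 6.84% of all genes. ER-associated degradation had no call among 17 genes, with 2 (11.8%) higher at an unadjusted p under 0.05 beside 10.1% of all genes and a median of 0.02, from -0.15 for Edem3 (adjusted p = 0.535) to 0.36 for Herpud1 (adjusted p = 0.181), a membrane protein of the degradation machinery. The KDEL receptors, which return chaperones from the Golgi, ran from -0.25 for Kdelr3 to 0.14 for Kdelr2, with a median of 0.06, and 0 of 3 had an unadjusted p under 0.05. Besides the members, 13 tested genes held an ERSE in a promoter window, 6 of them in the lists (Creld2, Ero1lb, Syvn1, Dnajc3, Pdia6 and Canx). None of the 13 was called by edgeR, DESeq2 or limma, 1 was higher and 1 lower at an unadjusted p under 0.05, and their median was -0.05.

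**Figure D4:**
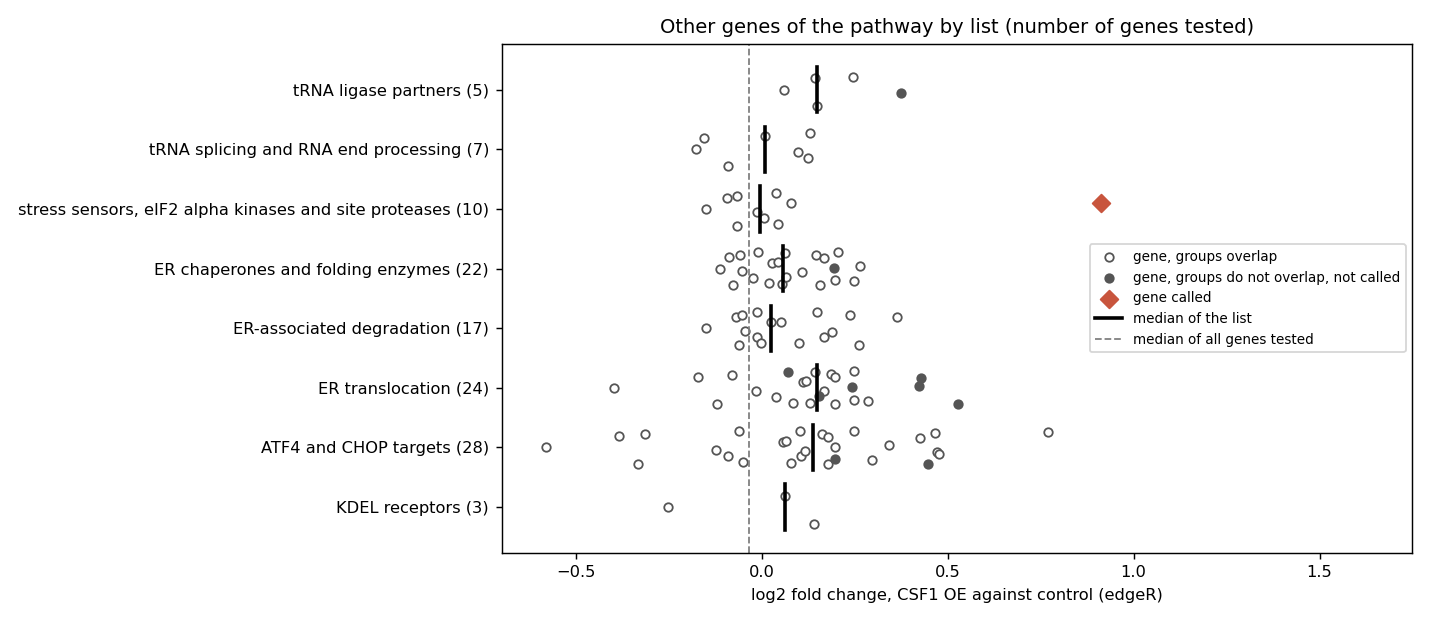
The log2 fold change in CSF1 OE against control (horizontal axis) of each tested gene of the 8 pathway lists. Open points are genes whose groups overlap, filled points genes whose groups do not overlap, and the diamond is Eif2ak2, the only called gene, at 0.91. Black bars are list medians, from -0.0047 to 0.15, and the dashed line is the median of all genes, -0.03.

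Several cytosolic heat shock genes varied widely between mice of both genotypes. Hspa1a, an inducible cytosolic chaperone whose counts may be split with its near-identical copy Hspa1b, had 2827, 1933 and 1554 CPM in control mice 1827, 1872 and 1934 and 3610 CPM in CSF1 OE mouse 1932. It had 155 CPM in control mouse 1874 and 33.8, 207 and 217 CPM in CSF1 OE mice 1931, 1936 and 2019. Hsph1 and Hsp90aa1 were high in the same 4 mice, with Hsph1 between 325 and 733 CPM there and between 41.5 and 67.0 CPM in the others. Hspa5 was at least 1685 CPM in those 4 mice and at most 1626 CPM in the other 4. Xbp1 and Atf4 ran the other way, with at most 140 and 383 CPM in those 4 mice and at least 143 and 418 CPM in the others. Rtcb, Ddx1, Ern1, Atf6, Ddit3, Hsp90b1 and Calr overlapped across these mice, a division seen in the values and not tested. How many of all genes divide in the same way was not counted, so nothing particular to Hspa5, Xbp1 and Atf4 is read from it. For Rtcb, control mouse 1874 was the lowest and CSF1 OE mouse 1932 lay with the other CSF1 OE mice.

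Of 8 heat shock genes 0 were called by edgeR in CSF1 OE against control, 0 passed an unadjusted p under 0.05, and their median log2 fold change was -0.49. None was called by DESeq2 or by limma either. With the mean log2 CPM of these 8 genes as a term, an alternative chosen with the data in view, the log2 fold change of Rtcb was 0.77. Those of Hspa5, Atf4 and Ddit3 were 0.24, 0.11 and -0.11, that of Xbp1 was -0.09, and none of the 9 was called (the lowest adjusted p was 0.398, for Hspa5). The part of the cell preparation in these values was not tested.

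**Figure D5:**
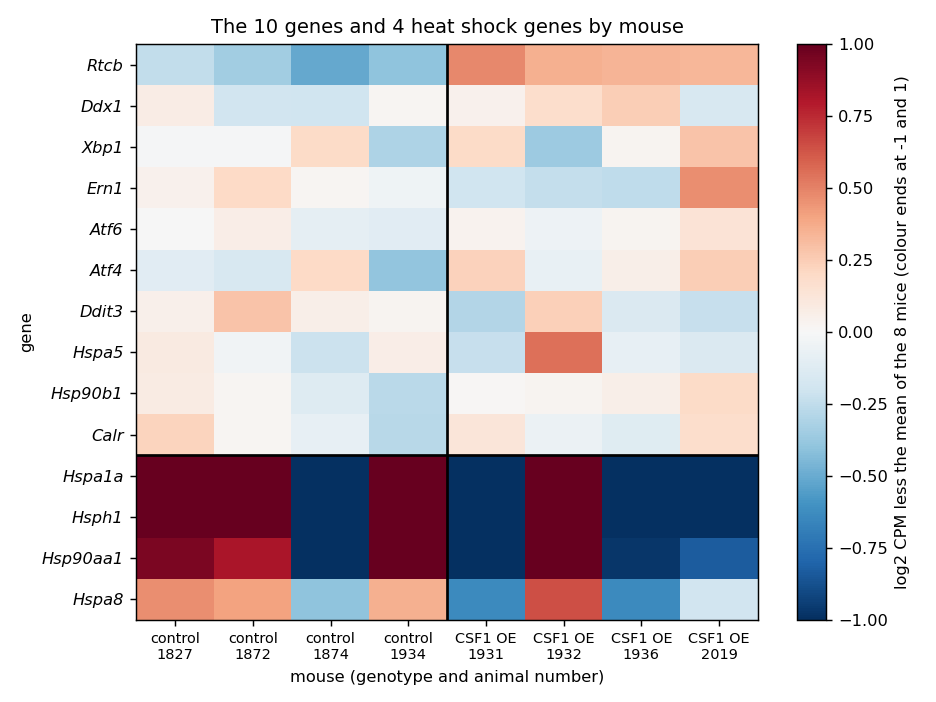
Each row is a gene and each column a mouse, and colour gives log2 CPM less the mean of the 8 mice (colour ends at -1 and 1). Rtcb, chosen by its rise, divides by genotype. Hspa1a, Hsph1, Hsp90aa1 and Hspa8 are high in control mice 1827, 1872 and 1934 and in CSF1 OE mouse 1932.

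The genes whose pattern over the 8 mice was most like that of Rtcb were found by Pearson's r on log2 CPM, as a description, since all libraries share scaling and fall into the genotypes. They included Cd72 (r = 0.985, log2 fold change 1.36), a receptor of the C-type lectin family, Iars2, a mitochondrial tRNA synthetase gene (0.982), the elongation factor gene Eef1a1 (0.982) and the ribosomal protein gene Rpl12 (0.981). After the mean of each genotype was subtracted, the order changed. Ipo4, an importin gene (r = 0.976), Polr3e, a subunit of RNA polymerase III (0.971), Wdr43 (0.960), Shmt2 (0.959) and Ddx19a (0.951) then led, and none of the other 9 genes was among either 5.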

How the data were processed

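RNA from CD11b+ cells of 4 control and 4 CSF1 OE mice was sequenced by the authors (TruSeq RNA kit v2, which does not mark strand, paired reads). The deposited expected counts per gene symbol were made by the authors with Bowtie 1.0.0 and RSEM 1.2.7, which divides reads that fit several genes, and the submitters' processing notes also name bcl2fastq 1.8.4 and mm10. The annotation is not given in the sources used here. The deposited normalized values are a signal, the expected counts divided by 1 size factor per library, and were used only in the limma alternative. Genotypes came from the labels, and no column was left unmapped (0 columns).

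Expected counts were rounded and tested in R 4.3.3 with edgeR 4.0.16 (filterByExpr, TMM, glmQLFit, glmQLFTest) without covariates, as the study compared its groups; its own tool was not used here. CPM used TMM library sizes, and log2 CPM a prior count of 2. The standard error is the log2 fold change over the square root of F, and intervals are 95%. No 2 libraries were copies (chi-square per gene from 15.1 to 91.2 over 28 pairs). Mice are separate animals, so p-values measure the spread between mice. Alternatives were DESeq2 1.42.0, other scaling factors and filters, limma 3.58.1 on log2(normalized value + 1), animal number (1931 to 1936 or not) as a term, which overlaps with genotype since these are 1 control and 3 CSF1 OE mice, each mouse left out, and a heat shock term. Methods were tested on simulated data. Positions and exon lengths came from GENCODE M21 (GRCm38), promoters and synonyms from RefSeq (10691 of 13407 tested genes had a window).

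The members, lists and tests were chosen with earlier results of these data known. Named are the members, the largest rise and fall of each list, every called list gene, and the 5 genes most like Rtcb by each measure; others, such as those whose groups did not overlap, were chosen after their values were seen. A planned list of proteins ending in an ER retention signal was not analysed here. One of the genes most like Rtcb is not reported here.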

Additional observations from a re-analysis of the deposited data

Results flagged for a closer look

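Within groups of 4 mice, 24 sets of CPM values (the 10 genes, Rtraf and Eif2ak2 in each genotype) were examined for a mouse far from the others by Dixon's ratio of gap to range at its 95% limit. Chance marks about 1 in 20 such sets, and 3 were marked. Ern1 stood at 59.1 CPM in CSF1 OE mouse 2019, with a gap of 0.940 of the range, where the other 3 CSF1 OE mice had between 35.7 and 37.1 CPM. Ddit3 stood at 80.3 CPM in control mouse 1872, with a gap of 0.890 of the range. Hspa5 stood at 2524 CPM in CSF1 OE mouse 1932, with a gap of 0.850 of the range, and Hspa1a was highest of all 8 in the same mouse, at 3610 CPM.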

How the results depend on the processing

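Over 16 alternatives the log2 fold change of Rtcb stayed between 0.71 and 0.80, and none of the 9 other genes was called. Of their 144 values, 138 kept their direction and 6 turned, all without a call. The lowest adjusted p among the 144 was 0.0917, for Atf4 in edgeR with the animal number term, where its log2 fold change was 0.37. With the heat shock term Xbp1 was at -0.087; without CSF1 OE mouse 2019 it was at -0.0041 (range without 1 mouse -0.0041 to 0.20). With the animal number term Ern1 was at 0.093 and Hspa5 at -0.025. Without 1 mouse Hspa5 ranged from -0.13 to 0.16, Calr from -0.014 to 0.14 and Ddit3 from -0.33 to -0.14.

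The number of genes called, 59, was 414 with DESeq2, 1273 with the animal number term, 104 with limma, 19 with upper-quartile factors and 4 with the heat shock term; without 1 mouse it ranged from 3 (without control mouse 1872 or 1874) to 164 (without control mouse 1827). The share called higher was 52 of 59, but 302 of 1273 with the animal number term and 257 of 414 with DESeq2. The number of pathway genes called, 1, was 2 with DESeq2 and with limma (Eif2ak2 and Ssr4), 5 with the animal number term (Eif2ak2, Ssr4, Mthfd2 and Nupr1 higher, Slc7a1 lower), 0 with upper-quartile factors and 0 with the heat shock term, and ranged from 0 to 2 without 1 mouse. By length of the longest transcript, 6 of 10 genes kept their place. The causes were not tested. No paired analysis was possible because the animal numbers are shared by no 2 mice.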
